A study of Homo sapiens with 12 samples.

Results

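Interferon-stimulated genes were followed in 697 and KOPN-8, human leukaemia lines of the B lineage, as a list of 44 genes that holds signalling factors of the interferon response and genes that interferon induces. All 44 symbols were found among the 59611 symbols of the count table, and 43 passed the filter on low counts that left 15218 genes for testing. The gene that did not pass, OASL, had 11 counts over all libraries. Libraries were stranded and poly-A selected, with 3 in each of 4 groups: the 697 clone labelled BM_B, given an sgRNA to SETD2 and labelled heterozygous knockout (edited 697), 697 with an empty sgRNA vector labelled SETD2 wild type (control 697), the KOPN-8 clone labelled BA, likewise labelled heterozygous knockout (edited KOPN-8), and KOPN-8 with the empty vector (control KOPN-8). Cells of all groups grew in RPMI with serum and antibiotics, and the labels name no interferon treatment. Each edited group is 1 clone, and whether the controls are clones is not stated, so that a difference between clone and control cannot be told apart from other differences between those cultures.

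Interferons are secreted proteins that cells release on viral infection. Type I interferon binds the receptor pair IFNAR1 and IFNAR2, whose kinases JAK1 and TYK2 phosphorylate STAT2 among other factors. STAT2 acts with IRF9 in a complex that binds the interferon-stimulated response element in front of its target genes, while the response to interferon gamma acts through the gamma-activated sequence. Target genes include RNA sensors, enzymes that degrade viral RNA, membrane proteins that hinder viral entry or release, and the ubiquitin-like modifier ISG15. SETD2 is the main enzyme of H3K36 trimethylation.

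Depth was 10378769 to 18278662 counts per library. Levels are given as CPM, counts scaled to library size with TMM factors, and a count of 0 in a library allows a level of up to 0.159 to 0.292 CPM (3 counts). SETD2 had 207, 211 and 238 CPM in edited 697, against 156, 158 and 169 CPM in control 697, and 161, 151 and 162 CPM in edited KOPN-8, against 159, 171 and 177 CPM in control KOPN-8. Its mRNA was thus higher in the 697 clone and overlapped the control in KOPN-8, so these counts show no loss of SETD2 mRNA and cannot check the knockout labels. All 9 B-lineage markers reached 1 CPM in every group except DNTT in edited KOPN-8, at 0.402 ± 0.202 CPM (SD, n = 3). The summed level of 6 T and NK markers was 8.68 to 12.2 CPM in edited 697, 3.86 to 5.197 CPM in control 697, 56.1 to 65.1 CPM in edited KOPN-8 and 53.4 to 57.4 CPM in control KOPN-8, nearly all of it NKG7, while CD3D had no count in any library. The part of NKG7-expressing cells in the results was not tested, and in bulk libraries fewer cells of a kind and less RNA per cell cannot be told apart. The 4 markers of plasmacytoid dendritic cells, a main source of type I interferon, summed to 0.588 to 1.27 CPM in edited KOPN-8, against 0.0742 to 0.175 CPM in control KOPN-8, and to at most 0.0654 CPM in 697, while CLEC4C and IL3RA among them had no count. The 6 myeloid markers summed to 2.72 to 3.44 CPM in edited KOPN-8, against 0.380 to 1.05 CPM in control KOPN-8, and to 0.883 to 1.75 CPM in edited 697, against 1.70 to 2.18 CPM in control 697, and S100A8 and S100A9 had no count. Of these 6 markers, 4 had no count in edited KOPN-8 and 2 had none in control KOPN-8. Only 1 of them reached 1 CPM in edited KOPN-8.

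The letters of the response element stood in front of many of these genes. RefSeq windows of GRCh38.p14, from 250 bases before to 50 bases after each annotated start, held 35 of the 44 genes, and the motif GAAA, any 2 bases and GAAA again was found on either strand for 22 of them, or 62.9%, against 4.38% of all 27305 symbols with a window. Of single windows, 3.57% of all 35116 held it. The gamma-activated sequence TTCNNNGAA, a palindrome, was found for 11 of the 35 genes, or 31.4%, against 9.38% of all symbols. IRF7, IFIT2, IFITM2, MX2, OAS2, OASL, TRIM22, USP18 and UBA7 had no window in the table. A match describes letters and not a bound site, and response elements with other letters were not searched. The sequences below, 5′ to 3′ on the strand of the gene with matches to that motif or its reverse complement in capitals, are those of genes whose levels are described next.
ISG15 (chr1:1013369-1013414, plus strand): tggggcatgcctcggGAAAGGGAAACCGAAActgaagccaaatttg
BST2 (chr19:17405730-17405775, minus strand): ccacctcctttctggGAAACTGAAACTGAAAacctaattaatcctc
ISG20 (chr15:88638932-88638971, plus strand): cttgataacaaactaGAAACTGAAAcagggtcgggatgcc
IFIT3 (chr10:89327826-89327899, plus strand): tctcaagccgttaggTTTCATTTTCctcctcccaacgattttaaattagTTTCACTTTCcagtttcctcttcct
DDX60 (chr4:168318781-168318855, minus strand): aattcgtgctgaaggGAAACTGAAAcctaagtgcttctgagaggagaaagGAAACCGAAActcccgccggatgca
SAMD9 (chr7:93118091-93118130, minus strand): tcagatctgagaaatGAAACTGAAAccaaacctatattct
IFITM3 (chr11:320871-320927, minus strand): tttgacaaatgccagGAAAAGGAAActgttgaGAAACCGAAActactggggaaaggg
IFITM1 (chr11:314024-314053, plus strand): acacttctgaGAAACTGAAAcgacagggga
DTX3L (chr3:122564322-122564351, plus strand): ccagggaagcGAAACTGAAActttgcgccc
PARP9 (chr3:122564317-122564356, minus strand): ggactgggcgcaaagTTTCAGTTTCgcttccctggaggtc
In ISG15 and in BST2 the pair of matches overlaps, so that 3 GAAA runs follow each other. PARP9 and DTX3L are transcribed away from each other, and the match shown for each is the same 10 bases of chromosome 3 read from opposite strands.

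**Figure D1:**
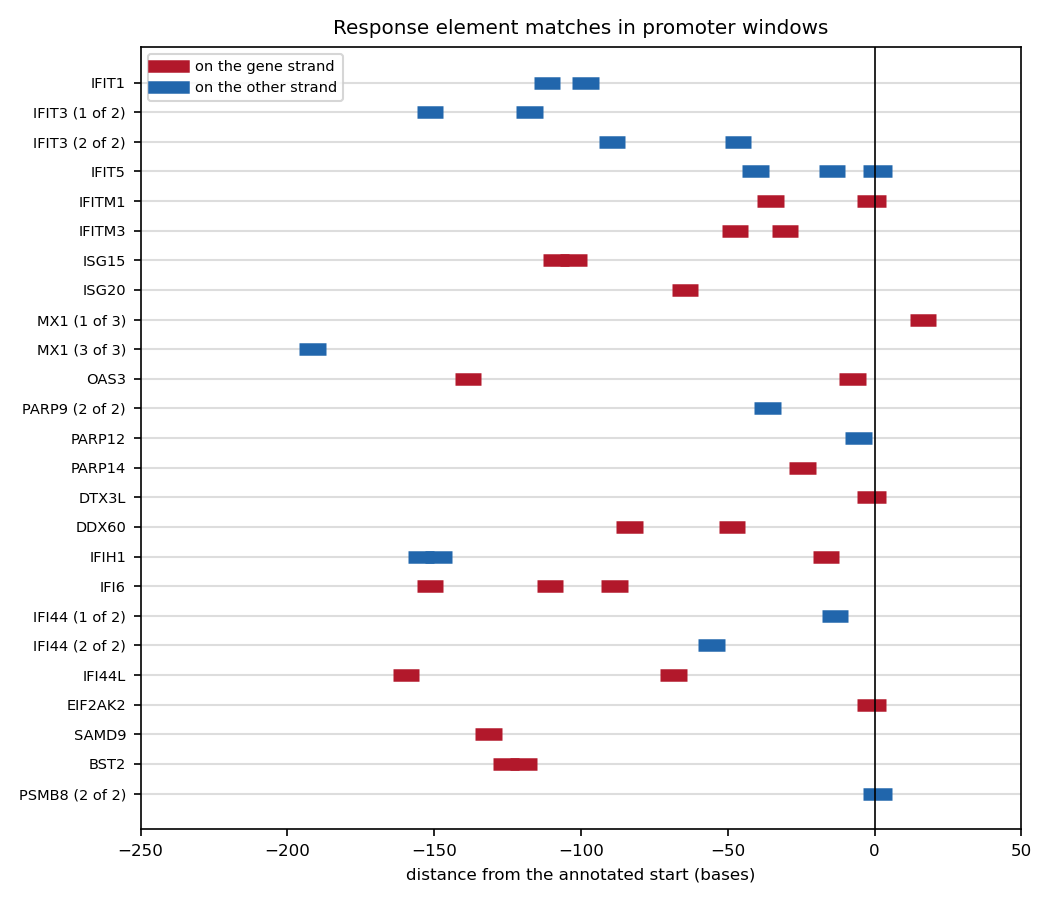
Positions of matches to the response element motif along the promoter windows that hold 1 or more (rows, 22 genes; genes with several annotated starts have a row for each window with a match). The x axis is the distance from the annotated start in bases; most matches lie within the 200 bases before it.

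In edited KOPN-8, more of the interferon-stimulated genes were higher than lower, relative to control KOPN-8. Of 43 genes tested, 13 rose and 3 fell, or 30.2% and 6.98%, where 11.5% of all genes tested rose and 17.2% fell, 28.7% in all (edgeR quasi-likelihood, Benjamini-Hochberg adjusted p under 0.05 over all genes tested). Their median log2 fold change was 0.10, against 0 over all genes tested, and the other 27 genes were not called. The genes that rose were STAT2, IRF7, IFIT2, IFIT3, ISG20, MX2, PARP9, DDX60, IFI16, TRIM25, UBA7, HERC6 and SAMD9, and those that fell were IFIH1, TRIM22 and USP18. With single libraries left out, 11 or 12 genes rose, and 2 to 5 fell. The summed levels of plasmacytoid dendritic and myeloid markers, low in all libraries, were also higher in edited than in control KOPN-8, as given above, and their part in these counts was not tested. The single myeloid markers did not all rise, since 4 of 6 had no count in edited KOPN-8, against 2 in control KOPN-8.

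Among signalling factors, STAT2, a transcription factor of the type I response, had the smallest p of the list in KOPN-8. Its level was 208, 204 and 207 CPM in edited KOPN-8, against 138, 148 and 150 CPM in control KOPN-8, and the groups did not overlap. It rose by 0.50 on the log2 scale (SE 0.0665; edgeR, adjusted p = 2.06e-06). Groups that do not overlap were common in this line, with 19 of the 43 genes higher and 7 lower without overlap, against 20.4% and 24.7% of all genes tested, 45.1% together. IRF7, which drives transcription of type I interferon genes, stood at 33.2, 35.4 and 31.2 CPM in edited KOPN-8, against 28.5, 23.01 and 21.8 CPM in control KOPN-8 (log2 fold change 0.45, SE 0.154; edgeR, adjusted p = 0.0346). That call was lost without edited replicate 1, without edited replicate 2, without control replicate 2 and without control replicate 3, with an adjusted p of up to 0.145 over all alternatives. It was also lost with limma on the normalized values. IRF9, the DNA-binding partner of STAT2, averaged 4.76 ± 0.692 CPM in edited and 3.52 ± 0.495 CPM in control KOPN-8 (SD, n = 3 each) and was not called (edgeR, adjusted p = 0.133), and neither was IRF1, at 127 ± 8.46 CPM in edited and 114 ± 1.36 CPM in control KOPN-8 (edgeR, adjusted p = 0.140). IRF1 was called higher in the fit on the 6 KOPN-8 libraries (edgeR, adjusted p = 0.0361).

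The IFIT genes encode tetratricopeptide proteins, several of which bind viral RNA. IFIT2 had 5.30, 5.44 and 5.38 CPM in edited KOPN-8, against 2.75, 1.92 and 2.07 CPM in control KOPN-8. All edited libraries lay above all controls, and the log2 fold change of 1.27 (SE 0.199; edgeR, adjusted p = 2.13e-05) was the largest of the list in this line. IFIT3 had 9.27, 8.31 and 8.98 CPM in edited KOPN-8, against 5.34, 4.31 and 4.57 CPM in control KOPN-8 (log2 fold change 0.91, SE 0.150; edgeR, adjusted p = 4.27e-05). The other members of the family were not called. IFIT1 had 1.32, 1.47 and 1.496 CPM in edited KOPN-8, against 1.11, 0.932 and 1.03 CPM in control KOPN-8 (log2 fold change 0.48, interval of 2 SE from -0.16 to 1.12). IFIT5 had 31.2, 29.8 and 27.9 CPM in edited KOPN-8, against 26.6, 29.2 and 26.9 CPM in control KOPN-8 (0.10, interval from -0.09 to 0.30). IFIT1 did not overlap between these groups and IFIT5 did. In 697 no gene of the family was called. IFIT2 had 2.90, 3.02 and 3.41 CPM in edited 697, against 2.48, 2.24 and 1.66 CPM in control 697, and IFIT3 had 2.46, 2.36 and 2.53 CPM in edited 697, against 3.73, 3.27 and 3.31 CPM in control 697. Their libraries did not overlap, in opposite directions. IFIT1 had 1.26, 1.03 and 1.17 CPM in edited 697, against 0.915, 1.88 and 0.753 CPM in control 697, and IFIT5 had 21.4, 18.99 and 19.98 CPM in edited 697, against 25.1, 19.4 and 22.0 CPM in control 697. Both of these overlapped. The IFIT genes lie together on chromosome 10, and their annotated transcripts share no run of 50 bases.

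ISG20, DDX60, HERC6 and UBA7 also rose in KOPN-8, while USP18 fell. ISG20, an exonuclease that degrades RNA, had 18.0, 18.0 and 19.2 CPM in edited KOPN-8, against 9.94, 9.90 and 8.80 CPM in control KOPN-8 (log2 fold change 0.95, SE 0.127; edgeR, adjusted p = 2.43e-06). DDX60, a DExD/H-box helicase, had 25.5, 28.1 and 25.5 CPM in edited KOPN-8, against 13.3, 17.4 and 18.4 CPM in control KOPN-8 (log2 fold change 0.68, SE 0.124; edgeR, adjusted p = 0.000154). For both, the edited libraries were all above the controls. HERC6, a HECT-domain gene of the family that includes the human ISG15 ligase HERC5, averaged 3.94 ± 1.03 CPM in edited and 2.13 ± 0.200 CPM in control KOPN-8 (SD, n = 3 each; log2 fold change 0.89), a call lost without edited replicate 3. The HERC6 call was also lost with limma on the normalized values. UBA7, the enzyme that activates ISG15 for conjugation, had 168, 160 and 183 CPM in edited KOPN-8, against 137, 127 and 134 CPM in control KOPN-8 (log2 fold change 0.36, SE 0.0726; edgeR, adjusted p = 0.000399). ISG15 itself was not called, with 24.8 ± 1.86 CPM in edited and 27.2 ± 3.38 CPM in control KOPN-8. USP18, the protease that removes ISG15 and restrains receptor signalling, had 6.52, 7.79 and 8.37 CPM in edited KOPN-8, against 11.6, 10.4 and 10.1 CPM in control KOPN-8 (log2 fold change -0.50, SE 0.150; edgeR, adjusted p = 0.0147). The USP18 call was lost without edited replicate 1, without control replicate 1 and with limma on the normalized values.

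PARP9 and DTX3L, whose proteins form a complex that ADP-ribosylates and ubiquitinates, hold the same promoter bases shown above, and in KOPN-8 PARP9 rose while DTX3L was not called. PARP9 had 66.6, 68.1 and 63.1 CPM in edited KOPN-8, against 47.4, 47.4 and 51.0 CPM in control KOPN-8, with no overlap (log2 fold change 0.44, SE 0.0779; edgeR, adjusted p = 0.000110). DTX3L had 193, 189 and 175 CPM in edited KOPN-8, against 176, 177 and 169 CPM in control KOPN-8. Those groups overlapped, and the log2 fold change of 0.09 (SE 0.0640) had an interval of 2 SE from -0.04 to 0.22. The difference between both genes' changes was not tested. Annotated exons of this gene pair overlap on opposite strands, and whether reads were assigned by strand is not given in the sources used here. PARP14, a further ADP-ribosyltransferase, had 164, 183 and 162 CPM in edited KOPN-8, against 185, 209 and 185 CPM in control KOPN-8, and was not called (edgeR, adjusted p = 0.0696). It was not called in 697 either, with 134, 135 and 161 CPM in edited 697, against 129.9, 126 and 135 CPM in control 697 (edgeR, adjusted p = 0.326).

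Further genes that rose in KOPN-8 were the dynamin-like GTPase MX2, the DNA sensor IFI16, the growth regulator SAMD9 and the ubiquitin ligase TRIM25. MX2 had 40.6, 44.4 and 42.1 CPM in edited KOPN-8, against 33.5, 31.3 and 31.6 CPM in control KOPN-8 (log2 fold change 0.40, SE 0.103; edgeR, adjusted p = 0.00446). IFI16 had 311, 330 and 314 CPM in edited KOPN-8, against 248, 260 and 261 CPM in control KOPN-8 (0.31, SE 0.0596; edgeR, adjusted p = 0.000237). SAMD9 had 96.2, 103 and 97.1 CPM in edited KOPN-8, against 71.2, 77.8 and 78.0 CPM in control KOPN-8 (0.38, SE 0.0709; edgeR, adjusted p = 0.000181). In each of these genes the edited libraries were all above the controls. Its neighbour SAMD9L was not called, at 27.9 ± 1.79 CPM in edited and 21.4 ± 2.66 CPM in control KOPN-8 (SD, n = 3 each; edgeR, adjusted p = 0.0674). It was called higher with the replicate block (0.00633), in the fit on the 6 KOPN-8 libraries (0.00311) and without a filter on low counts (0.00320), all adjusted p from edgeR. TRIM25 rose by 0.17 on the log2 scale, a call lost when any KOPN-8 library was left out and without a filter on low counts.

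The cytosolic RNA sensor IFIH1, also called MDA5, fell together with TRIM22 in KOPN-8. IFIH1 had 12.3, 11.8 and 12.1 CPM in edited KOPN-8, against 18.8, 17.5 and 17.7 CPM in control KOPN-8 (log2 fold change -0.57, SE 0.126; edgeR, adjusted p = 0.00104). TRIM22, an antiviral ubiquitin ligase, had 170, 173 and 181 CPM in edited KOPN-8, against 227, 213 and 200.3 CPM in control KOPN-8 (-0.29, SE 0.0702; edgeR, adjusted p = 0.00278). Neither gene's groups overlapped. MX1, the paralog of MX2, averaged 1.56 ± 0.409 CPM in edited and 2.59 ± 0.188 CPM in control KOPN-8 and was not called (SD, n = 3 each; edgeR, adjusted p = 0.0542).

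**Figure D2:**
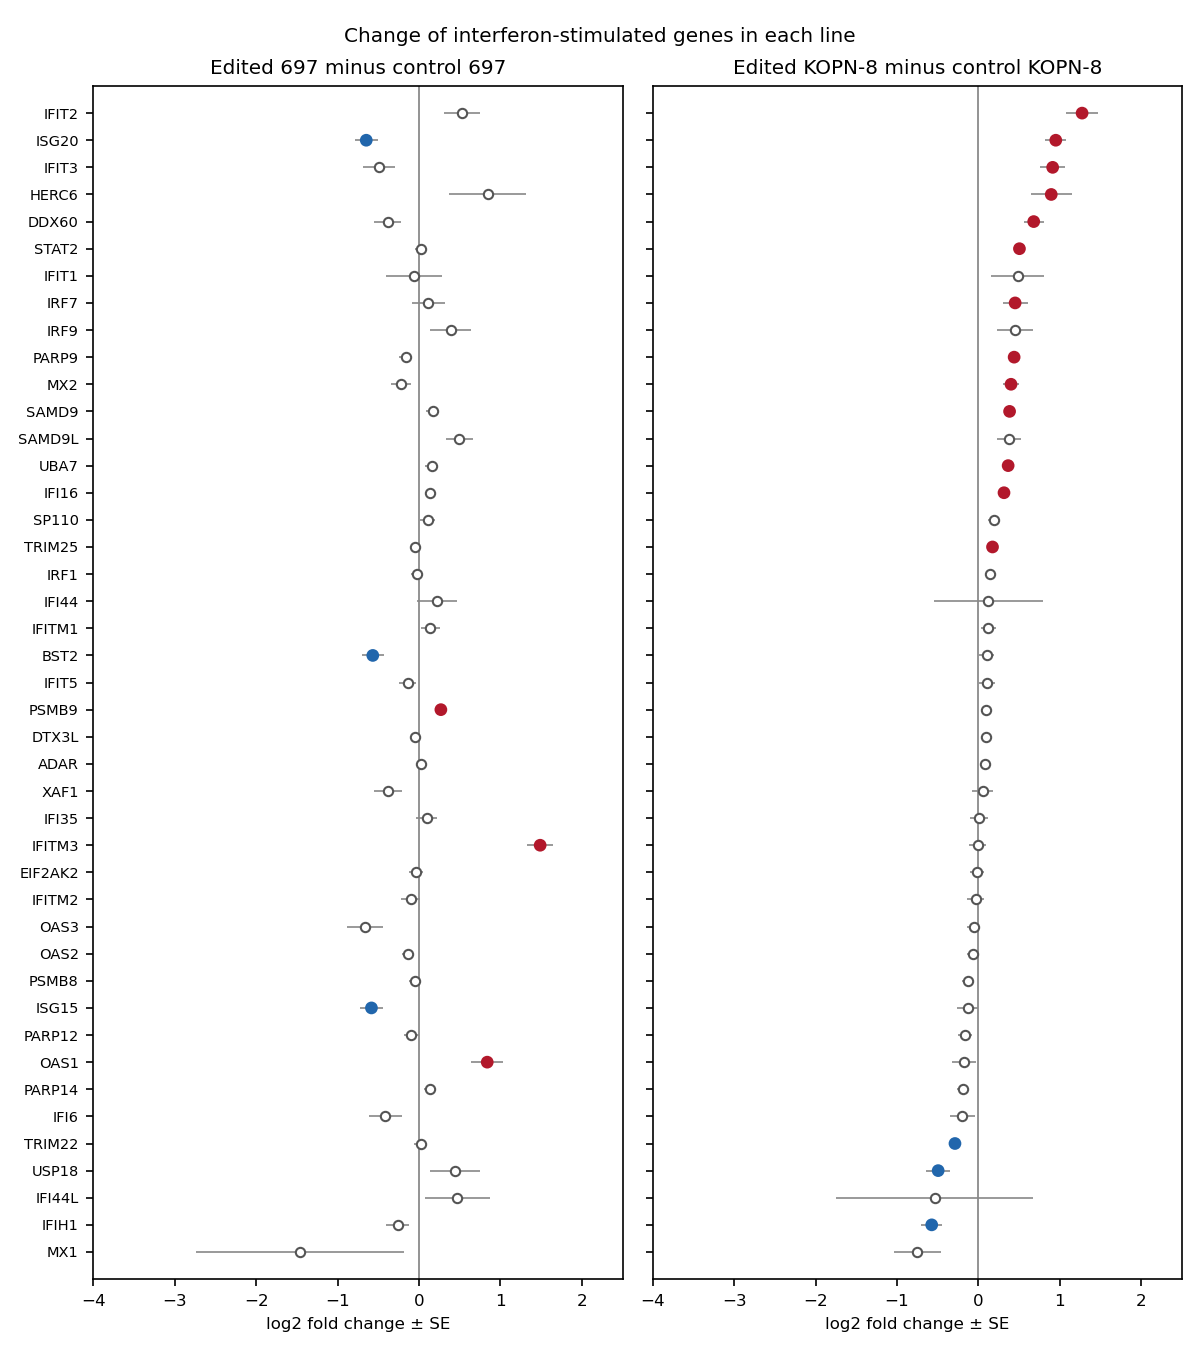
Log2 fold change with its standard error for the 43 genes tested, in edited against control 697 (left) and edited against control KOPN-8 (right), ordered by the KOPN-8 change. Filled points were called higher (red) or lower (blue) at an adjusted p under 0.05: 3 and 3 in 697, 13 and 3 in KOPN-8.

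In edited 697 fewer of these genes were called than in edited KOPN-8, and so were fewer of all genes tested (9.45% against 28.7%). The calls of the list went in both directions. Of 43 genes tested, 3 rose and 3 fell, or 6.98% each way, where 4.85% of all genes tested rose and 4.6% fell, and 9.45% in all, and the list's median log2 fold change was -0.03 against 0 over all genes tested. Without overlap, 7 genes of the list were higher and 5 lower, against 12.5% and 11.6% of all genes tested, 24.1% together. IFITM3, OAS1 and PSMB9 rose, while ISG15, ISG20 and BST2 fell. With single libraries left out, 2 or 3 genes rose and 2 to 4 fell. The other 37 genes were not called, STAT2 among them, at 62.3 ± 4.38 CPM in edited and 61.2 ± 3.40 CPM in control 697 (SD, n = 3 each), with a log2 fold change of 0.02 and an interval of 2 SE from -0.12 to 0.17.

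The IFITM genes encode small membrane proteins that hinder fusion of viruses with cell membranes. IFITM3 had 9.75, 9.94 and 7.51 CPM in edited 697, against 3.07, 3.69 and 2.94 CPM in control 697. The groups lay far apart, and the log2 fold change of 1.49 (SE 0.155; edgeR, adjusted p = 2.51e-07) was the largest rise of the list in this line. IFITM1 had 16.4, 17.7 and 22.0 CPM in edited 697, against 13.9, 18.2 and 18.5 CPM in control 697 (0.14, SE 0.118; edgeR, adjusted p = 0.537). IFITM2 had 57.9, 58.4 and 37.7 CPM in edited 697, against 52.4, 54.3 and 59.4 CPM in control 697 (-0.10, SE 0.117; edgeR, adjusted p = 0.684). Both overlapped between the groups. None of the 3 was called in KOPN-8. IFITM1 there had 143, 158 and 163 CPM in edited KOPN-8, against 153, 138 and 136 CPM in control KOPN-8. IFITM2 had 459, 470.1 and 441 CPM in edited KOPN-8, against 495, 449 and 458 CPM in control KOPN-8. IFITM3 had 28.4, 28.6 and 25.5 CPM in edited KOPN-8, against 27.4, 30.1 and 25.4 CPM in control KOPN-8. All of these overlapped. Of the runs of 50 bases in annotated transcripts of IFITM3, 16% also occur in IFITM1 or IFITM2, so that the counting could have split reads between these genes, and the shares were 32% for IFITM1 and 29.7% for IFITM2. Annotated exons of IFITM1 and IFITM2 overlap on the same strand, and IFITM3 exons overlap an annotated gene on the opposite strand.

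OAS proteins make short oligoadenylates when they bind double-stranded RNA. OAS1 had 6.03, 3.83 and 4.39 CPM in edited 697, against 2.55, 2.72 and 2.71 CPM in control 697 (log2 fold change 0.84, SE 0.198; edgeR, adjusted p = 0.00660). The edited libraries were all above the controls, but the call was lost without edited replicate 1, with an adjusted p of 0.0803. OAS2 had 72.2, 79.7 and 79.0 CPM in edited 697, against 84.3, 91.7 and 78.0 CPM in control 697 (-0.14, SE 0.0734; edgeR, adjusted p = 0.274). OAS3 had 1.64, 1.33 and 2.34 CPM in edited 697, against 2.68, 3.27 and 2.11 CPM in control 697 (-0.66, SE 0.220; edgeR, adjusted p = 0.0613). OAS2 and OAS3 thus overlapped between the groups. OAS3 was called lower under some alternatives. Adjusted p was 0.0427 without a filter on low counts, 0.0258 without edited replicate 3 and 0.0290 without control replicate 3 (edgeR), and 0.0439 with limma on the normalized values. OAS1 had 7.63, 9.34 and 8.20 CPM in edited KOPN-8, against 8.98, 10.3 and 9.08 CPM in control KOPN-8. OAS2 had 154, 158 and 141 CPM in edited KOPN-8, against 159.8, 159.9 and 156 CPM in control KOPN-8, and OAS3 had 159, 146 and 137 CPM in edited KOPN-8, against 154, 155 and 151 CPM in control KOPN-8. None was called there. No run of 50 bases is shared among the OAS transcripts.

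The genes that fell in 697 included the modifier ISG15 and the tetherin gene BST2, whose protein holds budding viruses at the cell surface. ISG15 had 15.5, 18.6 and 10.7 CPM in edited 697, against 22.6, 23.6 and 21.7 CPM in control 697 (log2 fold change -0.58, SE 0.139; edgeR, adjusted p = 0.00770). BST2 had 11.5, 10.2 and 9.36 CPM in edited 697, against 19.2, 14.6 and 12.4 CPM in control 697 (-0.57, SE 0.134; edgeR, adjusted p = 0.00753), with an adjusted p of 0.0521 without control replicate 1. ISG20 had 5.80, 8.39 and 6.82 CPM in edited 697, against 10.3, 12.4 and 10.2 CPM in control 697 (-0.65, SE 0.143; edgeR, adjusted p = 0.00393). In all 3 genes every edited library was below every control. PSMB9, a subunit of the immunoproteasome, had 75.8, 79.1 and 74.6 CPM in edited 697, against 60.5, 68.0 and 61.9 CPM in control 697 (0.27, SE 0.0701; edgeR, adjusted p = 0.0141). That call was lost without edited replicate 2, without control replicate 1 and without control replicate 3. It was also lost in the fit on the 6 libraries of that line. PSMB8, its neighbour on chromosome 6, was not called in 697, with a log2 fold change of -0.05, and exons of the pair overlap on opposite strands.

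Deviations of same-numbered 697 libraries correlated weakly, at 0.104 to 0.207, and differently numbered libraries were not compared. With the libraries paired by replicate number, SAMD9L and XAF1 were also called in 697. SAMD9L, at 17.3, 13.8 and 25.9 CPM in edited 697 and 13.5, 13.1 and 13.3 CPM in control 697, had an adjusted p of 0.0104 in the paired fit against 0.0701 in the unpaired fit (edgeR). SAMD9L was also called in unpaired alternatives. Adjusted p was 0.00164 without a filter on low counts and 0.00419 without edited replicate 2 (edgeR), and 0.0337 with DESeq2. Its spread among edited libraries came mostly from replicate 3. XAF1, a gene linked to apoptosis, averaged 9.20 ± 2.18 CPM in edited and 11.9 ± 2.25 CPM in control 697 (SD, n = 3 each), with an adjusted p of 0.0353 in the paired fit and 0.197 in the unpaired fit (edgeR). Without control replicate 2, the unpaired fit also called XAF1 (edgeR, adjusted p = 0.0484).

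In all, 21 of the 43 genes were called in 697 or in KOPN-8 and 22 in neither. Of all genes tested, 9.45% were called in 697 and 28.7% in KOPN-8. The share of all genes called in either line was not computed, so the count of 21 has no direct comparison. Of the genes not yet described, PARP12, IFI6, IFI35, IFI44 and IFI44L had log2 fold changes in 697 from -0.41 for IFI6 to 0.47 for IFI44L, and in KOPN-8 from -0.54 for IFI44L to 0.12 for IFI44. ADAR, EIF2AK2 and PSMB8 stayed closer to 0, from -0.05 to 0.02 in 697 and from -0.13 to 0.08 in KOPN-8. SP110, a nuclear body protein, had log2 fold changes of 0.11 in 697 and 0.19 in KOPN-8. It was called higher in KOPN-8 in the fit on the 6 KOPN-8 libraries (0.0164) and with the replicate block (0.0290), both adjusted p from edgeR. MX1 had 1 count in edited 697 and 4 counts in control 697, too few to show a difference.

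**Figure D3:**
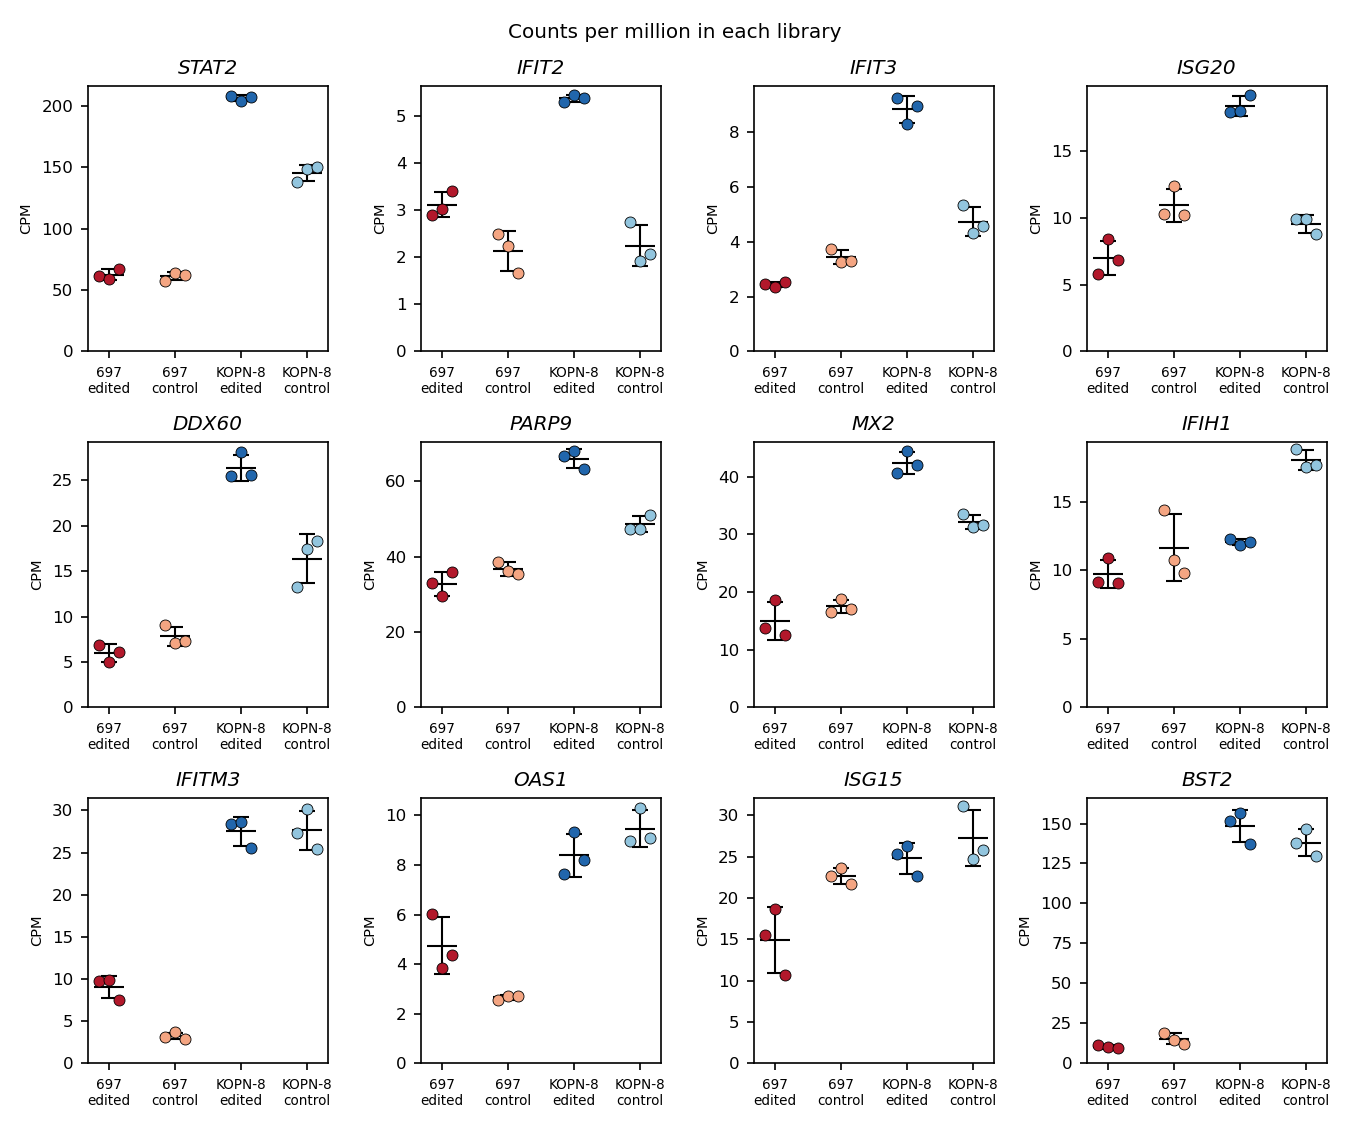
CPM in every library for 12 of the genes that were called in at least 1 line, each panel with its own axis from 0. Points are single libraries, and the bars give the mean and SD of 3 libraries. STAT2, IFIT2, IFIT3, ISG20, DDX60, PARP9 and MX2 are higher in edited than in control KOPN-8, IFIH1 is lower there, and IFITM3, OAS1, ISG15 and BST2 differ between edited and control 697.

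The changes in KOPN-8 and 697 were then set against each other by a test of their difference. It was called for 11 of 43 genes, or 25.6%, against 19.5% of all genes tested. In 7 of the 11, or 16.3% of the list, the KOPN-8 change was the more positive, against 7.46% of all genes tested, and in 4 the more negative, or 9.30% against 12.1%. ISG20 was the only gene of the list called in both lines, and its directions were opposite, so that the difference came to 1.60 on the log2 scale (SE 0.191; edgeR, adjusted p = 9.44e-07). IFIT3 differed by 1.40 (SE 0.246; edgeR, adjusted p = 0.000156). It averaged 2.45 ± 0.0897 CPM in edited and 3.44 ± 0.253 CPM in control 697 (SD, n = 3 each), where it was not called (edgeR, adjusted p = 0.125). DDX60 differed by 1.07 (SE 0.204; edgeR, adjusted p = 0.000421), BST2 by 0.67, MX2 by 0.62, PARP9 by 0.60 and STAT2 by 0.48. On the other side, IFITM3 differed by -1.50 (SE 0.189; edgeR, adjusted p = 2.04e-06), having 27.5 ± 1.71 CPM in edited and 27.6 ± 2.35 CPM in control KOPN-8, and OAS1 by -1.02 (SE 0.248; edgeR, adjusted p = 0.00422). PARP14 and TRIM22, at -0.32 and -0.31, were called at an adjusted p of 0.0384 each (edgeR) and lost that call under 7 and 10 of 19 alternatives.

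For IFIT2 the difference between lines was not called in the main test (0.74, SE 0.302; edgeR, adjusted p = 0.0904), so its rise in KOPN-8 is not shown by that test to differ from its log2 fold change of 0.53 in 697. The same holds for ISG15, with a difference of 0.45 (SE 0.189; edgeR, adjusted p = 0.104, and 0.0225 with the replicate block), and for USP18, with one of -0.94 (SE 0.346; edgeR, adjusted p = 0.0600). Further alternatives called these differences, all by edgeR. The adjusted p for IFIT2 was 0.0475 without 697 control replicate 3. For ISG15 it was 0.0342 without a filter on low counts and 0.0118 without 697 edited replicate 2. For USP18 it was 0.0316 without 697 edited replicate 3 and 0.0479 without KOPN-8 edited replicate 3. In 697, USP18 averaged 1.12 ± 0.301 CPM in edited and 0.840 ± 0.123 CPM in control libraries (SD, n = 3 each).

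**Figure D4:**
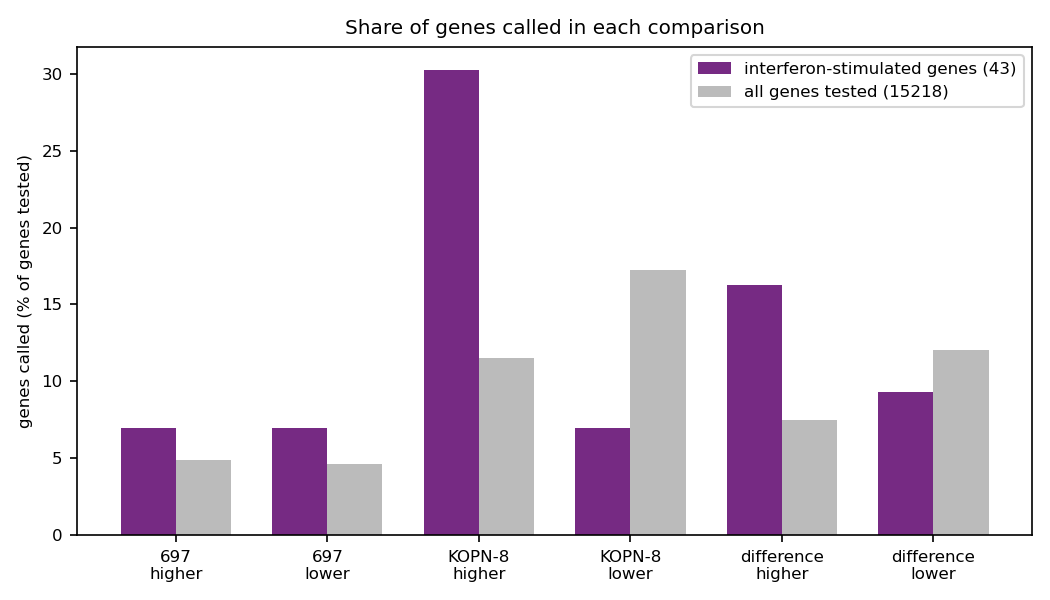
Genes called higher or lower, as a percentage of the 43 interferon-stimulated genes tested (purple) and of all 15218 genes tested (grey), in edited against control 697, in edited against control KOPN-8, and for the KOPN-8 change minus the 697 change. In KOPN-8, 30.2% of the list and 11.5% of all genes were called higher.

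By the share of genes called, the control lines differed more from each other than either clone did from its control. In control KOPN-8, 31 of 43 genes were higher and 3 lower than in control 697, or 72.1% and 6.98%, where 36.6% of all genes tested were higher and 36.7% lower, 73.3% in all. These counts include genes that passed the filter on low counts through 1 line only. They are IFI44 and IFI44L among the lower genes, and MX1 and HERC6, with 4 and 18 counts in control 697, among the higher. The list's median log2 fold change was 0.75, against -0.01 over all genes tested. Summed over the list, the level was 3921 to 4013 CPM in control KOPN-8 libraries, against 2267 to 2348 CPM in control 697 libraries. These values share the control libraries used above, and line and culture cannot be told apart in them.

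OAS3 stood furthest apart, with 154, 155 and 151 CPM in control KOPN-8, against 2.68, 3.27 and 2.11 CPM in control 697 (log2 fold change 5.81, SE 0.119; edgeR, adjusted p = 1.25e-22). Its neighbours on chromosome 12 differed less, OAS1 with 9.45 ± 0.742 CPM in control KOPN-8 and 2.66 ± 0.0968 CPM in control 697 (1.83), and OAS2 with 159 ± 2.29 CPM in control KOPN-8 and 84.7 ± 6.86 CPM in control 697 (0.90; SD, n = 3 each). MX1 had 2.37, 2.68 and 2.72 CPM in control KOPN-8, from 128 counts, and 4 counts in the control 697 libraries. USP18 had 11.6, 10.4 and 10.1 CPM in control KOPN-8, against 0.981, 0.787 and 0.753 CPM in control 697 (log2 fold change 3.65). BST2 had 138, 147 and 130 CPM in control KOPN-8, against 19.2, 14.6 and 12.4 CPM in control 697 (3.16). The IFITM genes differed by nearly the same factor: IFITM1, IFITM2 and IFITM3 each had a log2 fold change of 3.08, with SEs of 0.104, 0.115 and 0.137, and IFITM2 had 467 ± 24.4 CPM in control KOPN-8 and 55.4 ± 3.62 CPM in control 697 (SD, n = 3 each). Because these genes share transcript runs and exons, as given above, their counts may not be separate measurements.

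The reverse order was found for IFI44 and IFI44L, neighbours on chromosome 1. IFI44 had 8 counts in control KOPN-8 and 142 counts in control 697 (0.170 ± 0.100 CPM and 3.14 ± 0.128 CPM; SD, n = 3 each), and IFI44L had 3 counts in control KOPN-8 and 39 counts in control 697. Both passed the filter through 697, so they had to differ, and no test is given for them, although both are in the count of lower genes above. The kinase EIF2AK2, also called PKR, was the remaining gene called lower in control KOPN-8 (-0.24), with 109, 111 and 107 CPM in control KOPN-8, against 149, 112 and 124 CPM in control 697, a call lost without control 697 replicate 1 and without control KOPN-8 replicate 3. Its libraries did not overlap between the lines, although the highest KOPN-8 and the lowest 697 library lay close together, at 111.1 and 111.8 CPM. The smallest differences called higher were those of DTX3L (0.18) and IFIT5 (0.32), and each call was lost with a library left out. The DTX3L call was also lost with upper-quartile scaling. DTX3L had 176, 177 and 169 CPM in control KOPN-8, against 163, 150 and 147 CPM in control 697. IFIT5 had 26.6, 29.2 and 26.9 CPM in control KOPN-8, against 25.1, 19.4 and 22.0 CPM in control 697, and both genes thus differed without overlap between the lines. ADAR, the RNA editing enzyme, was not called, at 397 ± 10.0 CPM in control KOPN-8 and 407 ± 4.23 CPM in control 697 (SD, n = 3 each). Among the 44 genes, 17 averaged at least 100 CPM in control KOPN-8 and 8 in control 697, while 3 in control KOPN-8 and 5 in control 697 were under 1 CPM.

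**Figure D5:**
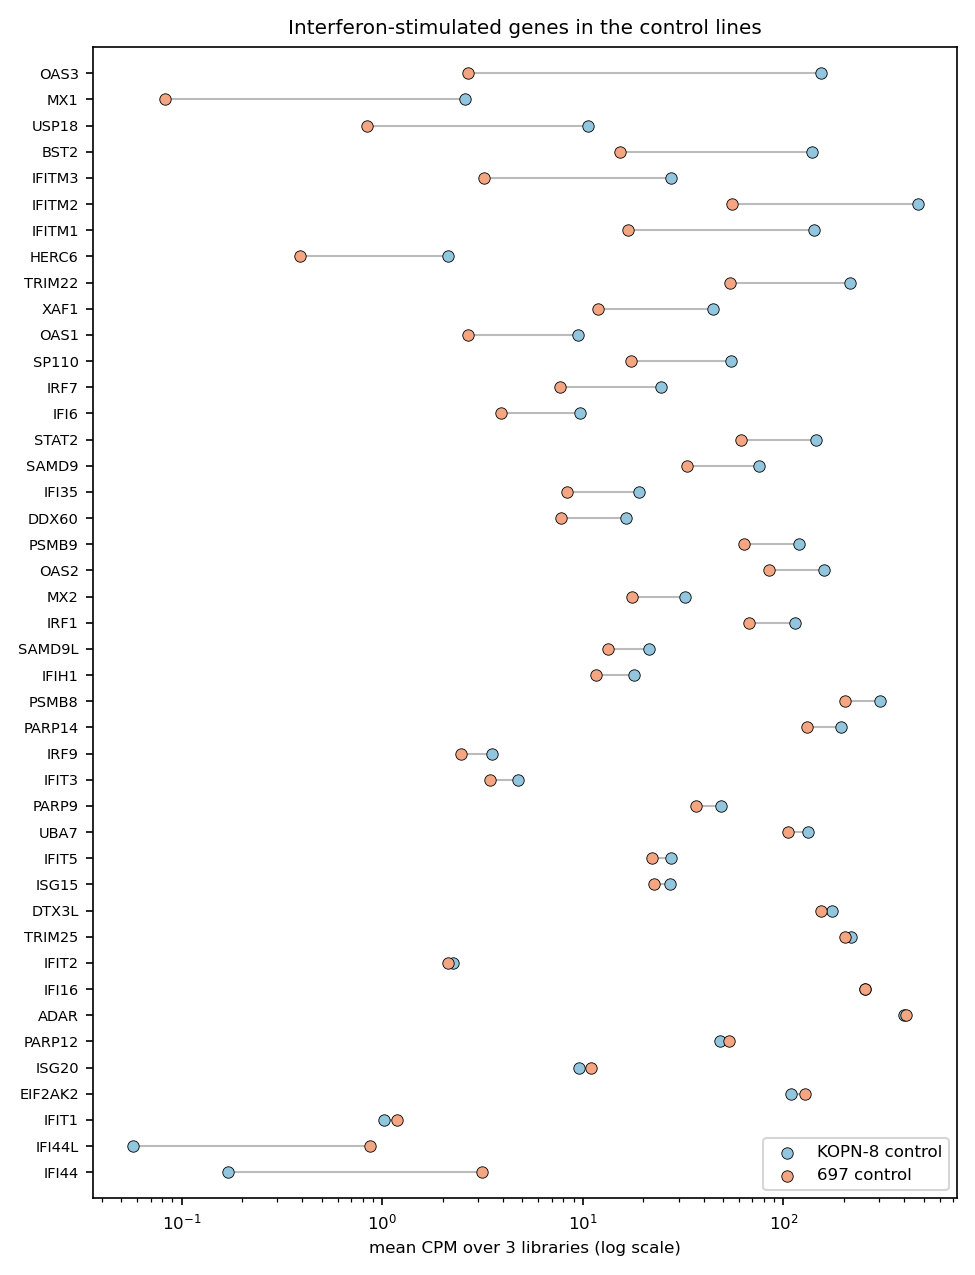
Mean CPM of the 43 genes tested in control KOPN-8 (blue) and control 697 (orange), on a log scale, ordered by the log2 fold change between them. OAS3, at the top, averaged 153 CPM in control KOPN-8 and 2.69 CPM in control 697; IFI44, at the bottom, had 0.170 CPM in control KOPN-8 and 3.14 CPM in control 697.

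Genes upstream of the list were read from a second list of 54 pathway genes, chosen with earlier results of these data known. Interferon ligand genes were nearly silent: 19 of 21 had no count in any library, and the other two, IFNB1 and IFNG, had 5 counts in all 12 libraries together. Of 31 pathway genes tested, 10 rose and 6 fell in edited KOPN-8, or 32.3% and 19.4% against 11.5% and 17.2% of all genes tested. In edited 697, 3 rose and 3 fell, or 9.68% each against 4.85% and 4.6% of all genes tested, with medians of 0.08 in KOPN-8 and 0.07 in 697. The type I receptor gene IFNAR2 fell in KOPN-8, to 34.2 ± 1.02 CPM in edited against 42.98 ± 3.996 CPM in control libraries (log2 fold change -0.33), and JAK1 rose there by 0.26, while IFNAR1 and TYK2 were called in neither line.

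Of 4 receptor chains for lambda or gamma interferon, IFNLR1, IFNGR1 and IFNGR2 were called in KOPN-8 and IL10RB was not, at log2 fold changes of -0.02 in KOPN-8 and 0.13 in 697. IFNLR1, the receptor of the lambda interferons, had 68.8 ± 3.57 CPM in edited and 37.3 ± 1.65 CPM in control KOPN-8 (log2 fold change 0.88, SE 0.0823; edgeR, adjusted p = 8.65e-09), and 32.9 ± 2.24 CPM in edited and 42.7 ± 4.05 CPM in control 697 (-0.37; SD, n = 3 each). The difference between the lines was 1.26 (SE 0.120; edgeR, adjusted p = 2.51e-08). The chains of the interferon gamma receptor went opposite ways in KOPN-8. IFNGR1 fell to 96.7 ± 6.39 CPM in edited against 161 ± 2.24 CPM in control KOPN-8 (-0.74), and IFNGR2 rose to 44.5 ± 4.44 CPM in edited against 26.7 ± 0.0931 CPM in control KOPN-8 (0.74). TRAF3, an adaptor that relays signals to interferon genes, fell by 0.91 on the log2 scale in KOPN-8 and by 0.27 in 697. The Toll-like receptor adaptor MYD88 rose by 0.44 in KOPN-8 and fell by 0.32 in 697. Among transcription factors, IRF5 fell to 8.74 ± 0.135 CPM in edited against 22.8 ± 2.45 CPM in control KOPN-8 (-1.38), and IRF8, a factor of B and myeloid cells, rose in both lines, by 0.62 in 697 and by 0.46 in KOPN-8.

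The last list, of 50 further interferon-induced genes, had 43 tested, and it too was chosen with earlier results of these data known. In edited KOPN-8 14 of them rose and 5 fell, or 32.6% and 11.6% against 11.5% and 17.2% of all genes tested, with a median log2 fold change of 0.13. In edited 697, 5 rose and 1 fell, or 11.6% and 2.33% against 4.85% and 4.6% of all genes tested, with a median of -0.0044. LGALS3BP, a secreted glycoprotein, fell to 2.48 ± 0.491 CPM in edited against 18.8 ± 1.65 CPM in control KOPN-8 (-2.89, SE 0.131; edgeR, adjusted p = 2.47e-14). In 697 the guanylate-binding protein GBP4 (0.41), the deoxynucleotide triphosphatase SAMHD1 (0.84) and BTN3A1 (0.33), a butyrophilin, rose. GBP4 (0.25) and SAMHD1 (0.39) were also called higher in KOPN-8, and for neither was the difference between the lines called. SAMHD1 averaged 9.09 ± 1.98 CPM in edited and 5.21 ± 1.52 CPM in control 697, and 253 ± 22.4 CPM in edited and 193 ± 2.77 CPM in control KOPN-8 (SD, n = 3 each).

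Presence of the response element letters was set beside the calls as a description. Of the genes with a promoter window, the motif stood in 5 of 9 that rose and in 1 of 1 that fell in edited KOPN-8, and in 16 of 25 that were not called. In edited 697 it stood in 1 of 3 that rose, in 3 of 3 that fell and in 18 of 29 that were not called. STAT2, IFI16, TRIM25 and HERC6, which rose in KOPN-8, had no match in their windows.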

How the data were processed

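Trimmomatic, STAR, DESeq2 and the build hg19 stand in the submitters' processing notes, with no role given. The sources used here do not give tool versions, the counting program or its annotation. Read counts per gene symbol were deposited by the authors as whole numbers. A second deposited table is a signal, each library's counts scaled by 1 factor, and served only 1 alternative. The test was the quasi-likelihood F test of edgeR 4.0.16 under R 4.3.3, robust, on all 12 libraries with TMM factors and the filter filterByExpr, with Benjamini-Hochberg adjustment over 15218 genes. The SE is the log2 fold change divided by the root of F. Alternatives were RLE and upper-quartile scaling, other filters, fits on the 6 libraries of a comparison, a replicate block, DESeq2 1.42.0, limma 3.58.1 on the normalized signal, and leaving out each library. The model was also run on simulated libraries, drawn independently without a clone effect or pairing, and no result here rests on that run.

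Groups came from the sample titles. These call the libraries biological replicates and say no more. The p-values therefore reflect spread among libraries, which may be technical. That spread exceeded sampling noise (chi-square over its degrees of freedom 2.92 to 10.8). Replicate numbers were checked for pairing by correlating deviations from group means. In 697 the correlations were 0.105, 0.207 and 0.104, all over 0.1, and in KOPN-8 they were 0.0508, 0.0362 and 0.0743. From this evidence alone the 697 numbers were taken as pairs, but only in the replicate block, which paired both lines. The main tests, and the calls and p-values given from them, left the libraries unpaired. Floors cover counting error only.

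The genes and lists were chosen with earlier results of these data known. Library values are given for members called with a mean of at least 5 CPM (at most 14 per comparison, by p), for the IFIT, IFITM and OAS families, and between the control lines for the 5 highest and 5 lowest called. Of the other lists, IFNAR1, IFNAR2, JAK1, TYK2 and up to 6 called genes per line are named. Genes outside this rule, such as TRIM25, HERC6, SAMD9L and XAF1, were chosen after their values were seen. Promoter windows come from RefSeq (GRCh38.p14) and transcripts from GENCODE 29 (GRCh38), another build than hg19. Identity between IFITM proteins was not analysed here. Some genes of these lists are not reported here by name.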

Additional observations from a re-analysis of the deposited data

Results flagged for a closer look

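The change in KOPN-8 differed from the change in 697, by edgeR's test of that difference at an adjusted p under 0.05, for 11 of 43 genes. That is 25.6% of the list, against 19.5% of all genes tested. On the log2 scale the KOPN-8 change minus the 697 change was 1.60 for ISG20, 1.40 for IFIT3, 1.07 for DDX60, 0.67 for BST2, 0.62 for MX2, 0.60 for PARP9 and 0.48 for STAT2. It was -1.50 for IFITM3, -1.02 for OAS1, -0.32 for PARP14 and -0.31 for TRIM22. Each line gave 1 clone and its own control, so that line, clone and edit cannot be told apart in these differences.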

How the results depend on the processing

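No called gene of the list changed direction under any alternative run. In 697, 3 of 6 calls were kept under all of them, in KOPN-8 12 of 16, for the difference between the lines 9 of 11, and for the control lines 30 of 34. The count of genes that fell in KOPN-8, 3 as reported, was 5 in the fit on the 6 libraries of that comparison and 5 with the replicate block, and ran from 2 to 5 with single libraries left out. MX1 and PARP14 were the genes added under both of these fits. The count of negative differences between the lines, 4 as reported, ran from 2 to 5 with single libraries left out, as low as 2 without 697 control replicate 2, 697 control replicate 3, KOPN-8 edited replicate 1 or KOPN-8 control replicate 2. With the replicate block, 15 genes rose in KOPN-8, 4 rose and 4 fell in 697, and 10 differences between the lines were positive; over all genes, 1156 rose and 1163 fell in 697, against 738 and 700 without it. Upper-quartile scaling moved the median of all genes between the control lines to -0.10, with 29 genes of the list higher and 4 lower. Depth limits OASL, MX1 in 697, and IFI44 and IFI44L in KOPN-8, each with fewer than 20 counts there. A block was not run for the control lines, whose libraries are not paired.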
